A study of Rattus norvegicus with 18 samples.

Results

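The response of cardiomyocytes to the short open reading frame sORF6 was set against their response to sORF7, gene by gene. Each response was the log2 ratio of the counts in cells infected with the sORF's adenovirus over those in cells infected with that experiment's own control virus, and the difference between the responses was the sORF6 response minus the sORF7 response. This used 12 of the 18 libraries of the series, 3 in each of 4 groups: ad-sORF6, its control virus, ad-sORF7 and its control virus. All 4 groups were neonatal rat ventricular cardiomyocytes from Sprague-Dawley rats at postnatal day 2, and all had received phenylephrine (PE) at 20 µM for 24 h, so no group shows cells without PE. The cells are primary cultures from which other adherent cells had been removed by pre-plating, and the RNA is bulk RNA, in which fewer cells of a type and less RNA per cell cannot be told apart. The labels give neither the sequence of an sORF nor whether both control groups received the same virus. Whether the 3 replicates of a group are separate cultures is not stated, so p-values reflect only how far replicates differ, and that spread could be technical. Of 19880 genes in the table, 14870 had enough counts to be tested, and all of them were members of the comparison.

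Short open reading frames are stretches of RNA that can be translated into small peptides, some of which act in heart muscle. Phenylephrine activates alpha-1 adrenergic receptors and drives hypertrophic growth, with more natriuretic peptide and fetal myosin. Adenovirus is a DNA virus, and cells that sense foreign nucleic acid make type I interferon, which acts through a complex of transcription factors on the interferon-stimulated response element of its target genes. A related set of inflammatory genes is driven by NF-kB.

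The 12 libraries held 17299568 to 17658137 counts each. Control replicate 2 of sORF6 and control replicate 1 of sORF7 stood apart from the other libraries of their groups: their mean chi-square per gene against those was 6.51 to 11.4, and 2.75 to 4.13 for all other pairs within the 4 groups. The difference between responses correlated with effective transcript length across 12485 genes (Spearman 0.207, a description over genes that share libraries). With both libraries left out the correlation was -0.0253. The controls of the 2 experiments differed in 1 gene, or 0.00672% of those tested (Cdkn1a), with 1247 at an unadjusted p under 0.05. Without the 2 libraries they differed in 980 genes. Some results are also given without these libraries.

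The responses to sORF6 and sORF7 went in opposite directions for many genes. The difference between them passed the test (edgeR's quasi-likelihood test, adjusted p under 0.05) for 1659 of 14870 genes, 11.2% of those tested: 726 (4.88%) were higher with sORF6 relative to sORF7 and 933 (6.27%) were lower. The higher calls were 43.8% of these by edgeR on counts and 28.9% by limma on log2(FPKM + 1). Without the 2 control libraries it passed for 1583. Against its own control, sORF6 changed 572 genes (3.85%), 144 up (0.968%) and 428 down (2.88%), and sORF7 changed 1156 (7.77%), 612 up (4.12%) and 544 down (3.66%). Of the 321 genes called in both experiments, 320 were opposite: 243 (1.63%) fell with sORF6 and rose with sORF7, and 77 (0.518%) rose with sORF6 and fell with sORF7. Vcam1 alone moved the same way in both. The 321 were picked by the tests of the 2 single responses, and all 320 also passed the test of the difference. The 320 are read as a class of genes that passed all 3 tests (2.15% of those tested). Their share of the 321 was not tested. Without the 2 control libraries the class held 338 genes, of which 258 were shared.

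A further 208 genes (1.4%) changed with sORF6 and not with sORF7, and 621 (4.18%) changed with sORF7 and not with sORF6. All had a called difference between the responses. Of the 208, 50 rose and 158 fell with sORF6. Of the 621, 277 rose and 344 fell with sORF7. A p that misses the threshold does not show that the other sORF did nothing, so the 95% interval of the other response was also required to lie within 0.32 of 0 on the log2 scale. This held for 121 of the 208 (34 up, 87 down) and for 459 of the 621 (187 up, 272 down). In the 459, the median response to sORF7 was 0.229 in the rises and -0.223 in the falls. Their median response to sORF6 was -0.0905 and 0.0845. Below, a gene that moved with 1 sORF alone is any of the 208 or 621, bounded or not. There, alone means not called with the other sORF, not unchanged by it. For another 510 genes only the difference itself was called. The plot of both responses shows the opposite genes in 2 quadrants, with the longer arm towards lower levels with sORF6.

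**Figure D1:**
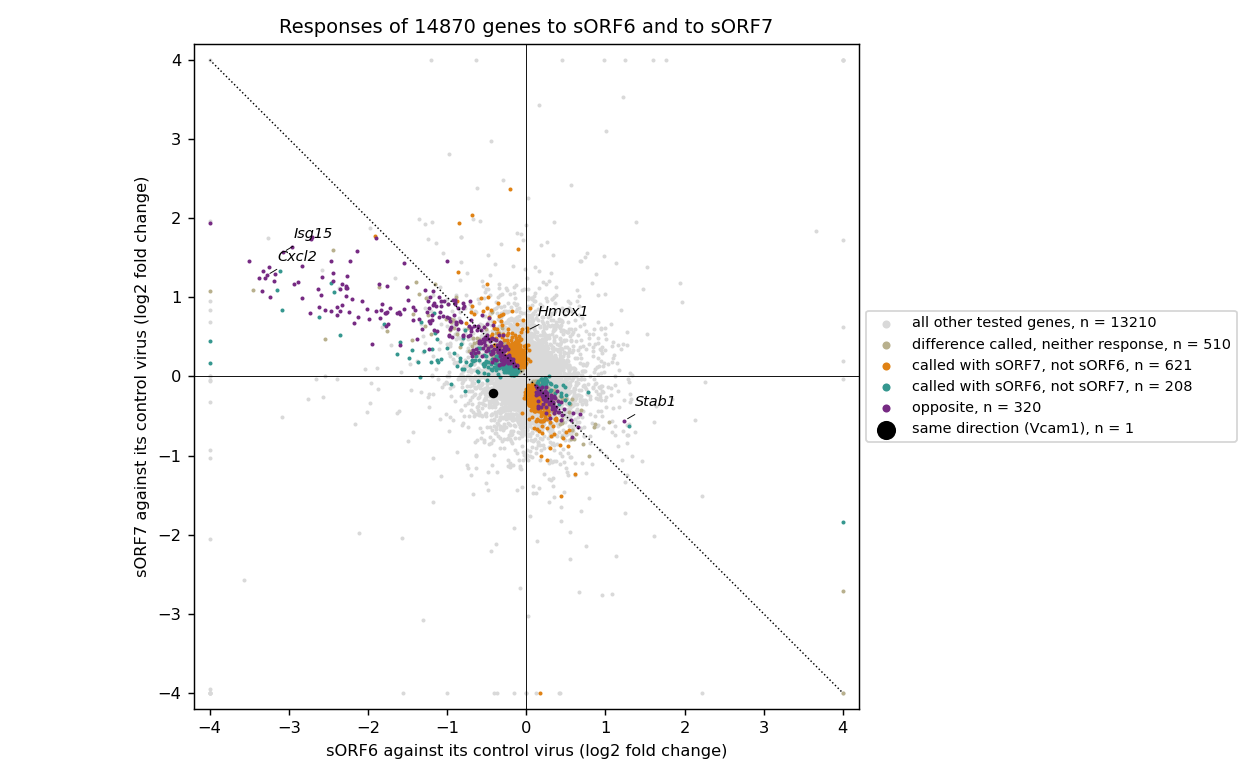
Log2 fold change of each of 14870 genes with sORF6 (horizontal axis) and with sORF7 (vertical axis) against that experiment's control virus; points are genes, colours are the classes of the tests, the dotted line marks responses of equal size and opposite sign, and values beyond 4 are drawn at 4. The 243 genes that fell with sORF6 and rose with sORF7 reach from the origin to the far upper left, and the 77 genes of the other orientation lie closer to the origin.

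The 2 orientations differed in size. In the 243 genes the median response was -0.806 (log2) for sORF6 and 0.623 for sORF7, or 1.75-fold and 1.54-fold. In the 77 genes the medians were 0.249 and -0.282, or 1.19-fold and 1.22-fold. Medians over all tested genes were 0.00084 and -0.00244. The median effective transcript length was 3620 bases in the 77 genes, 2160 in the 243 and 2450 in all tested genes. In a fit with offsets for transcript length these orientations held 96 and 300 genes. In 42 of the 320 genes both responses were at least 2-fold. For 41 of the 320, the sum of the responses differed from 0, which means that one response was larger. In 39 of these sORF6 was the larger, all among the 243, and in 2 sORF7 was the larger, both among the 77. That contrast was added after the data had been seen, and it was called for 106 of all tested genes (0.713%). Of the 243 genes, 236 had all 3 sORF6 libraries below all 6 control libraries and all 3 sORF7 libraries above them. This order held for 473 tested genes (3.18%), and the reverse order for 307 (2.06%), among them 71 of the 77. The first principal component of the 12 libraries, with 42.5% of the variance, kept the same order. On it sORF6 lay at -28.25 to -24.72 and its controls at -2.902 to -0.8305. The controls of sORF7 lay at 4.431 to 7.347 and sORF7 at 21.1 to 24.69. The control groups did not overlap there, each lying on the side of its own sORF. The controls were not level in the 243 genes: the control of sORF6 lay below that of sORF7 in 204 of them, with a median difference of -0.164.

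**Figure D2:**
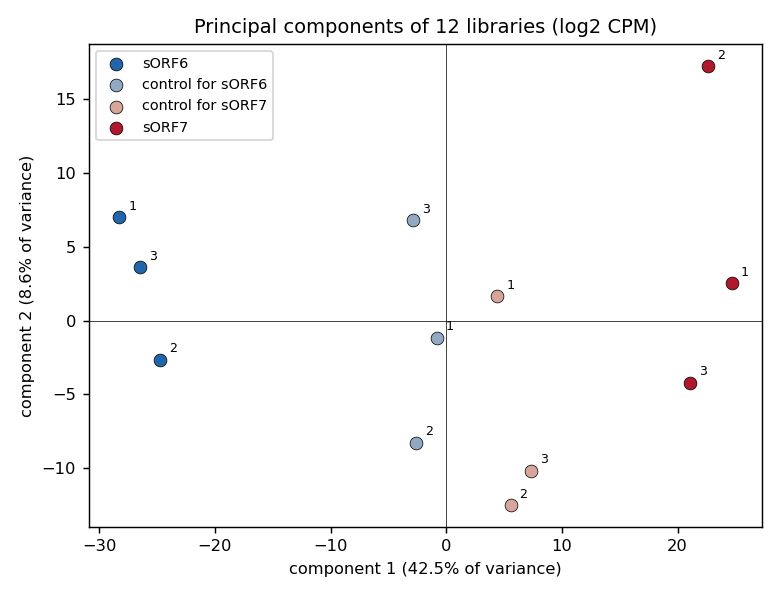
Scores of the 12 libraries on the first (horizontal axis) and second (vertical axis) principal component of log2 CPM; each point is 1 library, numbered by replicate. Along the first component the sORF6 libraries lie at the left, the 6 control libraries in the middle and the sORF7 libraries at the right.

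Most genes of the antiviral interferon response were lower with sORF6 and higher with sORF7. Of 37 tested antiviral effectors, 33 were opposite in this orientation, among its 243 genes. Their list had a median response of -1.99 to sORF6 and 0.878 to sORF7, and 14 of the 33 moved further with sORF6. Isg15, a ubiquitin-like protein that is attached to viral and cellular proteins, stood at 1.63, 2.22 and 2.42 normalised CPM with sORF6, 22.5, 14.7 and 15.8 with its control virus, 30.6, 27.4 and 28.4 with the control of sORF7 and 96.8, 81.6 and 77.6 with sORF7. The 4 groups did not overlap in their order sORF6, controls, sORF7. Its response was -3.07 ± 0.24 for sORF6 (log2 ± SE, adjusted p = 8.32e-08) and 1.57 ± 0.15 for sORF7 (adjusted p = 6.29e-06), or 8.42-fold lower and 2.97-fold higher.

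Rsad2, the enzyme viperin, which makes a chain-terminating nucleotide, stood at 1.51, 4.38 and 2.6 normalised CPM with sORF6, 27.4, 13.5 and 25.2 with its control virus, 39.7, 35.5 and 36.8 with the control of sORF7 and 124, 118 and 106 with sORF7. Its sORF6 libraries were all below the controls and its sORF7 libraries all above them (-2.96 ± 0.30 and 1.63 ± 0.20). Oas1a, which makes the 2-5A messenger that activates RNase L, responded by -3.25 ± 0.27 to sORF6 and 1.39 ± 0.18 to sORF7, Usp18, which takes Isg15 off proteins, by -3.34 ± 0.22 and 1.08 ± 0.16, and Mx2, a dynamin-like GTPase, by -2.94 ± 0.25 and 1.17 ± 0.21. The other four genes of the list were not opposite. Isg20 rose with sORF7 (0.46 ± 0.11, adjusted p = 0.0128, and 0.0839 without sORF7 replicate 1), Ifitm1 fell with sORF7 (-0.28 ± 0.07, adjusted p = 0.0137, and up to 0.0607 without sORF7 replicate 2 or control replicate 2 or 3 of sORF7) with a difference that was not called (adjusted p = 0.057; 0.00106 without the 2 control libraries), and Ifit1 and Oas3 were called in neither experiment. Oas, Mx and Ifit genes have close copies between which the authors' counting may have split reads, so their separate values are uncertain.

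The promoters of these genes are shown because a larger share of the promoters in this orientation than of all promoters held the interferon-stimulated response element. They come from the RefSeq promoter table for build GRCr8, run 5′ to 3′ on the strand of the gene, and are stretches of the window from 250 bases before to 50 after the start. Capitals mark a match to the element, searched as GAAA, any 2 bases and GAAA again, or to its reverse complement. The Oas1a stretch lies at chr12:41330401-41330465 (plus strand) with its match 26 bases before the start, Oas1b at chr12:41395866-41395935 (minus strand), Rsad2 at chr6:48788228-48788297 (minus strand), Irf7 at chr1:205800053-205800122 (minus strand) and Tapbp at chr20:4967878-4967927 (minus strand).
Oas1a: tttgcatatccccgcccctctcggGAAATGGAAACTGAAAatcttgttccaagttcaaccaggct
Oas1b: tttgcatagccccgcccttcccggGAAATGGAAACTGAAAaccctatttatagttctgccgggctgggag
Rsad2: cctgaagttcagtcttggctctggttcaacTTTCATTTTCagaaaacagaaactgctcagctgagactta
Irf7: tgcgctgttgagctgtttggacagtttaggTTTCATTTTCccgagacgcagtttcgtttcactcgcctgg
Tapbp: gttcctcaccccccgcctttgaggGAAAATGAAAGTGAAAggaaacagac
In Oas1a, Oas1b and Tapbp, 2 matches overlap to make the longer run of capitals.

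Promoters were found for 11467 of the 14870 tested genes, 1 per gene. The element, searched on both strands, was in the window of 48 of 186 genes that fell with sORF6 and rose with sORF7 (25.8%), against 338 of 11467 tested genes (2.95%) and 3.77% of all 27457 genes in the table. It was in 2 of 56 genes of the other orientation (3.57%), 9 of 116 that fell with sORF6 alone (7.76%), 4 of 39 that rose with it alone (10.3%), 2 of 265 that fell with sORF7 alone (0.755%) and 15 of 222 that rose with it alone (6.76%). Of the antiviral list, 21 of 28 promoters held it. The 48 opposite genes with the element had median responses of -1.51 to sORF6 and 0.831 to sORF7, and the 138 without it -0.544 and 0.43. A match to the NF-kB site was in 31 of the 186 windows (16.7%), against 5.03% of tested genes. A match is a description of letters, not a bound site.

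**Figure D3:**
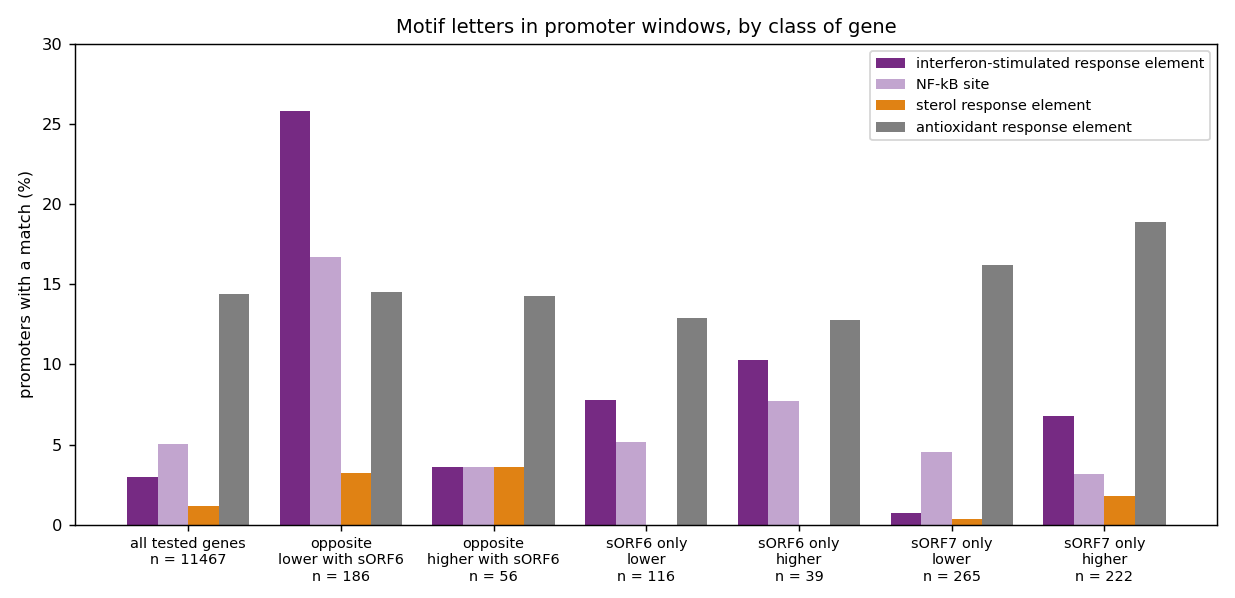
Share of promoter windows (vertical axis, %) holding the letters of 4 motifs, for all tested genes and for each class of gene, with the number of promoters under each class. The response element reaches 25.8% in genes lower with sORF6 and higher with sORF7, against 2.95% of all tested genes.

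Transcription factors of the pathway moved the same way as its targets. Of 14 interferon transcription factors and signal proteins, 8 were opposite and 10 had a called difference, all lower with sORF6. Irf7, the factor that amplifies interferon production, stood at 6.92, 9.11 and 8.66 normalised CPM with sORF6, 89.7, 59.6 and 76 with its control virus, 122, 104 and 113 with the control of sORF7 and 305, 245 and 229 with sORF7. It was 9.12-fold lower with sORF6 (-3.19 ± 0.22) and 2.3-fold higher with sORF7 (adjusted p = 0.000162). Stat2, a factor of the complex that binds the response element, changed by -1.24 ± 0.11 and 0.70 ± 0.10. Among 14 genes for sensors of nucleic acid, 4 were opposite and 7 had a called difference. Ddx58, which encodes RIG-I, changed by -2.33 ± 0.18 and 0.90 ± 0.15, Ifih1, which encodes MDA5, by -1.84 ± 0.21 and 0.83 ± 0.18, and Dhx58, their regulator LGP2, by -2.59 ± 0.21 and 1.03 ± 0.15.

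Genes of antigen presentation by MHC class I fell with sORF6 and rose with sORF7. Of 18 tested genes of the class I pathway and the immunoproteasome, 16 were opposite and 17 had a called difference, and in none did the responses differ in size by the test of their sum. Tap1, a subunit of the peptide transporter, stood at 18.2, 17.5 and 18.1 normalised CPM with sORF6, 48.9, 37.3 and 41.9 with its control virus, 58.4, 52.2 and 56.1 with the control of sORF7 and 108, 97.9 and 86.7 with sORF7. No library of sORF6 or sORF7 fell within the controls. Responses were -1.25 ± 0.10 and 0.81 ± 0.09 for Tap1, -1.09 ± 0.08 and 0.81 ± 0.07 for Tapbp, which holds class I molecules at the transporter, and -1.10 ± 0.16 and 1.00 ± 0.14 for Psmb8, a catalytic immunoproteasome subunit. B2m, the light chain of class I, changed by -0.53 ± 0.07 and 0.63 ± 0.07. RT1-CE5 is 1 of many near-identical class I genes and its separate value is uncertain (-0.72 ± 0.06 and 0.64 ± 0.06). Of 16 promoters found for the list, 8 held the response element and 7 the NF-kB letters.

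Chemokines were lower with sORF6 and higher with sORF7 in most members tested. Of 14 tested chemokines, 8 were opposite, and 4 of them moved further with sORF6. Cxcl6 fell with sORF6 alone. Cxcl10, a chemokine induced by interferon, stood at 4.13, 4.91 and 5.08 normalised CPM with sORF6, 18.5, 15.1 and 18.9 with its control virus, 28.5, 29.9 and 25.7 with the control of sORF7 and 107, 87.1 and 88.9 with sORF7. The groups did not overlap, and the response was -1.89 ± 0.17 to sORF6 and 1.75 ± 0.13 to sORF7. Ccl2, the main monocyte attractant, changed by -1.75 ± 0.11 and 0.66 ± 0.10, and Cxcl1, which attracts neutrophils, by -1.95 ± 0.13 and 0.41 ± 0.11. The Cxcl1 response to sORF7 lost its call without sORF7 replicate 1 or 3 or control replicate 1 or 3 of sORF7 (adjusted p up to 0.104). Cxcl2 was at low counts throughout (0.407, 0.292 and 0 normalised CPM with sORF6, 2.65, 2.55 and 1.77 with its control virus, 1.74, 2.56 and 2.18 with the control of sORF7 and 5.77, 5.43 and 4.53 with sORF7), and its response was -3.28 ± 0.40 and 1.28 ± 0.27. Ccl5 rose with sORF7 (2.98 ± 0.78, adjusted p = 0.0227) from 0.116, 0.117 and 0.0573 normalised CPM in the control to 0.785, 0.792 and 0.85, and its difference was not called (adjusted p = 0.118). Without any 1 of the 6 libraries of the sORF7 experiment that rise was not called either (adjusted p up to 0.0849).

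Of 17 cytokines and acute phase genes, 5 were opposite (Csf1, Il1b, Lcn2, Nos2 and Tnf) and 3 fell with sORF6 alone. Over all tested genes, 2.15% were opposite, 1.4% changed with sORF6 alone and 4.18% with sORF7 alone. Nos2, the inducible nitric oxide synthase, stood at 1.57, 1.34 and 0.577 normalised CPM with sORF6, 14.5, 8.52 and 10.1 with its control virus, 8.29, 15.6 and 11.3 with the control of sORF7 and 23.4, 23.9 and 23.6 with sORF7. Every sORF6 library lay below every control and every sORF7 library above, and the responses were -3.24 ± 0.32 and 1.01 ± 0.22. Lcn2, an iron-binding protein of inflammation, changed by -1.39 ± 0.09 and 0.48 ± 0.08, and Tnf by -2.23 ± 0.29 and 1.46 ± 0.21. Tnf was at low counts, 0.233, 0.409 and 0.404 normalised CPM with sORF6 and 5.16, 5.43 and 3.91 with sORF7. In NF-kB subunits and their feedback inhibitors, 3 of 16 genes were opposite (Bcl3, Nfkbiz and Tnfaip3) and 3 fell with sORF6 alone. Nfkbia, the inhibitor that NF-kB itself induces, was among the latter (-0.54 ± 0.07 against 0.14 ± 0.07), and Tnfaip3 changed by -0.68 ± 0.07 and 0.25 ± 0.07. The rise of Tnfaip3 lost its call without sORF7 replicate 1 or 2 or control replicate 2 or 3 of sORF7 (adjusted p up to 0.087), that of Bcl3 without sORF7 replicate 1 or 3 or control replicate 1 (up to 0.0727) and that of Il1b without sORF7 replicate 2 or control replicate 3 (up to 0.0748). In complement, C3 fell with sORF6 (-1.23 ± 0.11) and rose with sORF7 (0.34 ± 0.10, adjusted p = 0.0475), a rise not called without any 1 of the sORF6, sORF7 and sORF7 control libraries (adjusted p up to 0.194), and C1r changed by -0.39 ± 0.04 and 0.20 ± 0.04. Of 13 cell death genes 2 were opposite, among them Mlkl, the executor of necroptosis (-0.57 ± 0.09 and 0.42 ± 0.09), and Casp4, a sensor of bacterial lipid, rose with sORF7 (0.60 ± 0.08) with a sORF6 response of -0.05 ± 0.09.

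**Figure D4:**
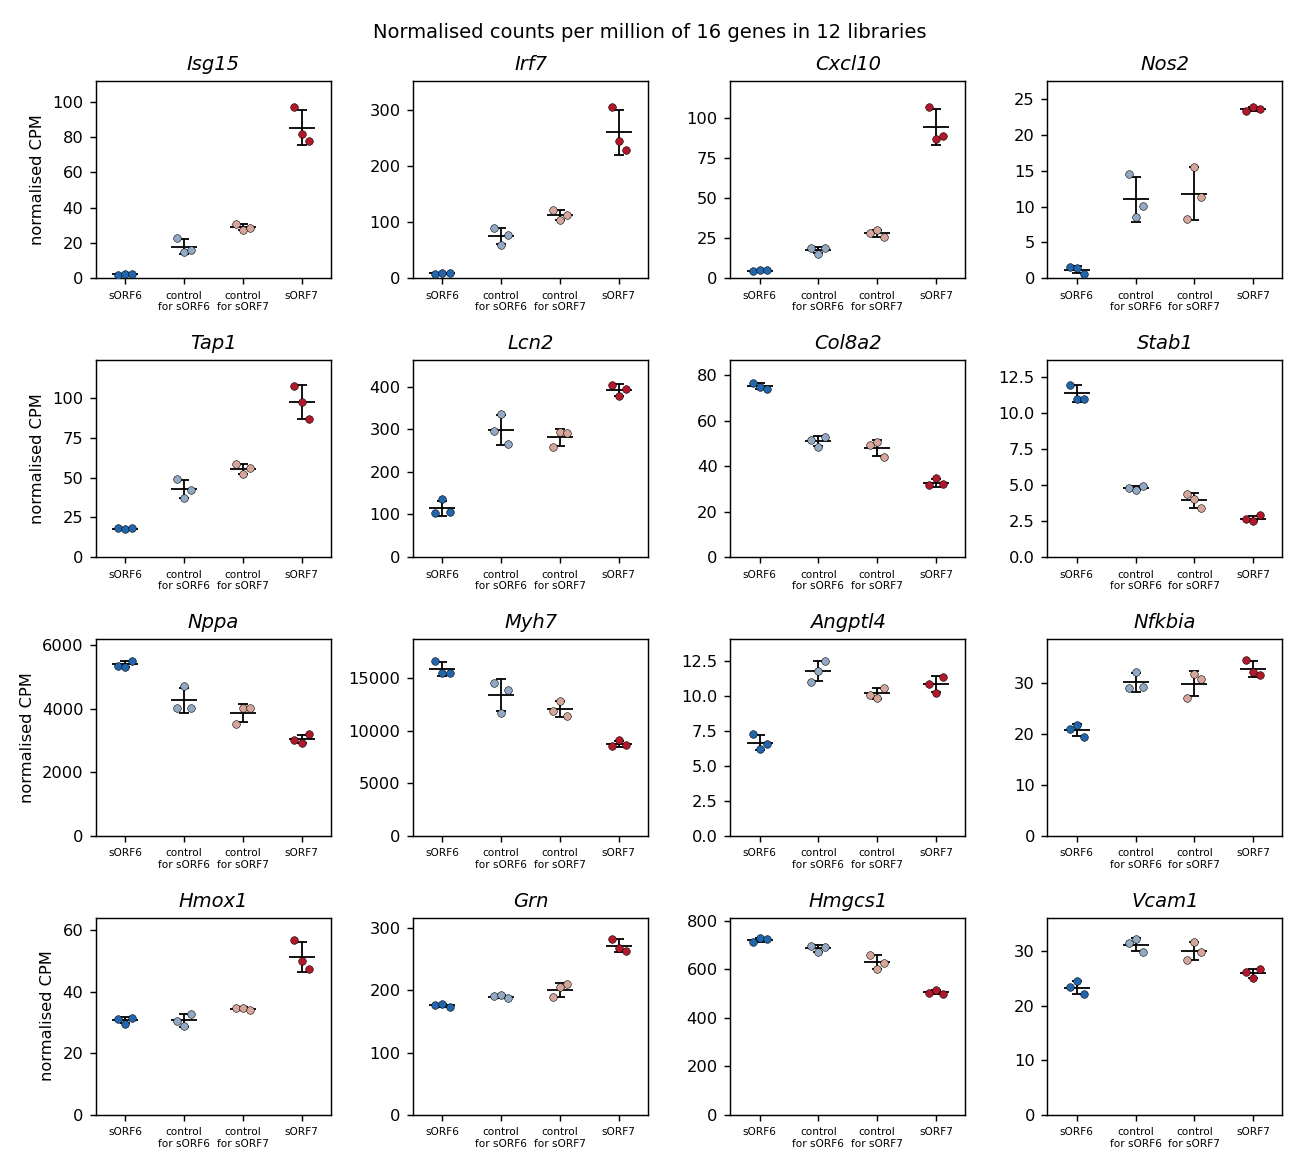
Normalised CPM (vertical axis, from 0) of 16 genes in each of the 12 libraries, grouped along the horizontal axis as sORF6, its control, the control of sORF7 and sORF7; dots are libraries, the bar is the mean and the whisker 1 SD. The genes from Isg15 to Lcn2 are lowest with sORF6 and highest with sORF7, those from Col8a2 to Myh7 the reverse, Angptl4 and Nfkbia are lowest with sORF6, and Hmox1, Grn and Hmgcs1 differ from the other groups with sORF7.

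Genes that rose with sORF6 and fell with sORF7, 0.518% of all tested genes, included heart muscle and matrix genes. Of 20 hypertrophy and fetal genes, 5 were higher with sORF6 and lower with sORF7 (Fhl1, Myh7, Myl4, Nppa and Nppb). In all, 8 had a called difference that was higher with sORF6 and 3 one that was lower, with 1 that fell with sORF6 alone and 1 that rose with sORF7 alone. Nppa, which encodes atrial natriuretic peptide and is the classic marker of hypertrophic cardiomyocytes, stood at 5366, 5331 and 5517 normalised CPM with sORF6, 4031, 4720 and 4043 with its control virus, 3529, 4015 and 4033 with the control of sORF7 and 3026, 2934 and 3201 with sORF7. The sORF6 libraries exceeded the controls and the sORF7 libraries lay below them, with responses of 0.34 ± 0.05 and -0.34 ± 0.05. Nppb, which encodes brain natriuretic peptide, changed by 0.23 ± 0.06 and -0.28 ± 0.06, and its opposite call held in 6 of 12 fits that left out 1 library: it was lost without any sORF6 replicate, control replicate 1 or 3 of sORF6 or sORF7 replicate 1 (adjusted p up to 0.184 for sORF6). Acta1, skeletal actin of the fetal programme, fell with sORF7 (-0.28 ± 0.05), with 0.11 ± 0.05 for sORF6, and was opposite without the 2 control libraries. Gata4, a cardiac transcription factor, also fell with sORF7 (-0.31 ± 0.03, with 0.07 ± 0.03 for sORF6), and was not opposite without those libraries.

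Beta myosin heavy chain, Myh7, which replaces alpha myosin in the hypertrophic rat heart, rose with sORF6 (0.25 ± 0.06) and fell with sORF7 (-0.46 ± 0.06). Myh6, the alpha form, fell with sORF6 (-0.32 ± 0.07) and had a sORF7 response of 0.20 ± 0.07 that was not called. The sORF6 call of Myh7 was lost without sORF6 replicate 1 or control replicate 2 of sORF6 (adjusted p up to 0.129), and that of Myh6 without sORF6 replicate 3 or control replicate 1 (up to 0.0814). Without control replicate 2 of sORF6, Myh6 was opposite. As a share of the sum of Myh6 and Myh7 normalised CPM, Myh7 took 74.8%, 74.0% and 74.3% with sORF6, 65.6%, 66.7% and 66.3% in its control, 66.2%, 64.6% and 63.3% in the control of sORF7 and 54.1%, 53.6% and 53.2% with sORF7. The 2 genes are near-identical in sequence, so the split is uncertain, and this share was chosen after the values were seen. Atp2a2, the calcium pump of the sarcoplasmic reticulum, was called in neither experiment (-0.00 ± 0.04 and -0.09 ± 0.04).

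Of 29 sarcomere genes, 4 were opposite, higher with sORF6 and lower with sORF7 (Mybpc3, Myom2, Pdlim5 and Synpo2l), and 8 fell with sORF7 alone; their median response was 0.0755 to sORF6 and -0.175 to sORF7. Myom2, an M-band protein, changed by 0.35 ± 0.06 and -0.41 ± 0.07, and Actn2, of the Z-disc, by 0.05 ± 0.03 and -0.22 ± 0.03. The opposite count was 12 without the 2 control libraries. Mybpc3 lost its sORF6 call without sORF6 replicate 1 or 3 or control replicate 2 or 3 of sORF6 (adjusted p up to 0.167), and Pdlim5 was not opposite without control replicate 1. With offsets for transcript length Mybpc3 was also called with sORF7 only. Ttn, which encodes titin, was called in neither experiment (0.20 ± 0.13 and -0.24 ± 0.13). In calcium handling only Casq2, the calcium store protein, was opposite (0.17 ± 0.03 and -0.16 ± 0.03), of 18. Over all tested genes, 0.518% were opposite in this orientation and 4.18% changed with sORF7 alone.

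Of 34 collagen and matrix genes, 5 were higher with sORF6 and lower with sORF7, and 1 the reverse (Mmp3). A called difference was towards sORF6 in 17 and away from it in 3. Over all tested genes these shares were 4.88% and 6.27%. Col8a2 stood at 76.7, 74.8 and 74.2 normalised CPM with sORF6, 51.4, 48.6 and 52.9 with its control virus, 49.5, 50.5 and 43.9 with the control of sORF7 and 31.6, 34.9 and 32.1 with sORF7, with no overlap between sORF6, controls and sORF7. Responses were 0.56 ± 0.05 and -0.55 ± 0.06 for Col8a2, 0.43 ± 0.06 and -0.55 ± 0.06 for Col5a3 and 0.26 ± 0.06 and -0.31 ± 0.06 for Eln, which encodes elastin. The sORF6 call of Eln was lost without any 1 of the sORF6 libraries or control replicate 1 or 2 of sORF6 (adjusted p up to 0.0757), and the sORF7 call of Mmp3 without sORF7 replicate 2 or 3 or control replicate 1 or 2 of sORF7 (up to 0.0724). Stab1, a scavenger receptor of macrophages and endothelium, stood at 12, 11 and 11 normalised CPM with sORF6, 4.77, 4.69 and 4.96 with its control virus, 4.41, 4.02 and 3.38 with the control of sORF7 and 2.63, 2.49 and 2.89 with sORF7. It rose by 1.24 ± 0.14 with sORF6 and fell with sORF7 (-0.56 ± 0.15, adjusted p = 0.0303), the fall not being called without sORF7 replicate 1 or 2 or control replicate 1 or 2 of sORF7 (adjusted p up to 0.134). Dlk1, a membrane protein of fetal tissue, changed by 0.65 ± 0.10 and -0.64 ± 0.11, and Selenop, a selenium carrier, by 0.59 ± 0.07 and -0.46 ± 0.08.

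In the 121 bounded genes that moved with sORF6 alone, the median response to sORF6 was 0.225 in the rises and -0.244 in the falls. Their median response to sORF7 was -0.0958 and 0.0871. Angptl4, an inhibitor of lipoprotein lipase, stood at 7.27, 6.19 and 6.58 normalised CPM with sORF6, 11, 11.8 and 12.5 with its control virus, 10.1, 9.85 and 10.6 with the control of sORF7 and 10.9, 10.2 and 11.4 with sORF7. It fell with sORF6 (-0.82 ± 0.09), and the 95% interval of its sORF7 response ran from -0.10 to 0.28. Scube3, a secreted signalling protein, changed by -0.62 ± 0.06 with 0.07 ± 0.05 for sORF7, and Itgb2, the beta-2 integrin of leukocytes, by -0.79 ± 0.10 with 0.09 ± 0.10. Adgre1, a macrophage marker, changed by -0.61 ± 0.10 with -0.06 ± 0.10, a difference not called without the 2 control libraries (adjusted p = 0.0526). Of 11 tested leukocyte markers, 2 were called lower with sORF6 and not called with sORF7 (Adgre1 and Itgam). Another 2 were called lower with sORF7 and not called with sORF6 (Csf1r and Lyz2). In all, 5 had a called difference, 3 of them lower with sORF6, against 11.2% of all tested genes. Csf1r, the receptor of a macrophage growth factor, changed by 0.29 ± 0.13 and -0.49 ± 0.14 and Lyz2, a lysozyme, by 0.23 ± 0.09 and -0.36 ± 0.10. Their sORF7 calls were lost without sORF7 replicate 2 or 3 or control replicate 3 of sORF7, that of Csf1r also without control replicate 1 and that of Lyz2 without control replicate 2 (adjusted p up to 0.163 and 0.167). Tnfrsf1b, a TNF receptor, changed by -0.62 ± 0.11 with 0.05 ± 0.11. Among the rises, Tgfb3, a growth factor, rose by 0.20 ± 0.03, and Ppara, a regulator of fatty acid oxidation, by 0.31 ± 0.06. Outside the bounded genes, Cyp1a1, the classic target of the aryl hydrocarbon receptor, rose by 1.30 ± 0.29 with sORF6. It stood at 1.38, 1.33 and 1.65 normalised CPM in the control and 4.3, 2.98 and 3.52 with sORF6. Its sORF7 response was -0.63 ± 0.32, which was not called but is not within 0.32 of 0. Its rise lost its call without sORF6 replicate 1 or control replicate 1 or 2 of sORF6 (adjusted p up to 0.086).

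Genes that rose with sORF7 alone included targets of NRF2, the transcription factor of the antioxidant response. Of 30 tested, 10 rose with sORF7 alone, 1 was opposite and 14 had a called difference, all towards sORF7. Over all 14870 tested genes, 277 rose with sORF7 alone. None of the 30 rose with sORF6, with which 0.968% of all tested genes rose. Hmox1, heme oxygenase, stood at 31.1, 29.5 and 31.4 normalised CPM with sORF6, 30.3, 28.7 and 32.8 with its control virus, 34.8, 34.5 and 33.9 with the control of sORF7 and 56.8, 49.8 and 47.4 with sORF7. It rose with sORF7 (0.58 ± 0.06) and the sORF6 response had a 95% interval of -0.13 to 0.14. Srxn1, which repairs oxidised peroxiredoxins, changed by 0.01 ± 0.07 and 0.61 ± 0.07, Sqstm1, an autophagy receptor, by -0.08 ± 0.05 and 0.48 ± 0.05, and Gclc, of glutathione synthesis, by -0.12 ± 0.04 and 0.28 ± 0.04. The antioxidant response element, searched as TGACNNNGC on both strands, was in 42 of 222 promoters of genes that rose with sORF7 alone (18.9%), against 14.4% of tested genes. Of the lysosomal genes, 10 of 27 tested rose with sORF7 alone. None changed with sORF6, which changed 3.85% of all tested genes, so a list of this size may hold none. Grn, a lysosomal growth factor, stood at 176, 178 and 173 normalised CPM with sORF6, 191, 192 and 188 with its control virus, 189, 205 and 210 with the control of sORF7 and 283, 268 and 264 with sORF7, and its responses were -0.12 ± 0.04 and 0.43 ± 0.04. Without control replicate 1 of sORF7, Grn was opposite (adjusted p = 0.0421 for sORF6). Ctsd, a lysosomal protease, changed by -0.07 ± 0.04 and 0.26 ± 0.04, and Lamp1, a lysosomal membrane protein, by 0.02 ± 0.03 and 0.22 ± 0.03. Of 23 p53 targets, 5 rose with sORF7 alone, among them Mdm2 (0.32 ± 0.05), and Cdkn1a, the cell cycle inhibitor p21, was opposite (-0.30 ± 0.03 and 0.22 ± 0.03).

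Genes of sterol synthesis and uptake fell with sORF7. Of 25 tested, 19 fell with sORF7 and none changed with sORF6, and 13 had a called difference. Over all tested genes, 3.66% fell with sORF7 and 3.85% changed with sORF6. Hmgcs1, which makes HMG-CoA, stood at 714, 727 and 723 normalised CPM with sORF6, 696, 671 and 693 with its control virus, 660, 601 and 626 with the control of sORF7 and 503, 513 and 498 with sORF7. The sORF7 libraries lay below every other library, and the responses were 0.07 ± 0.04 and -0.32 ± 0.04. Hsd17b7, a late enzyme of the pathway, changed by 0.15 ± 0.06 and -0.55 ± 0.06, and Sqle by 0.06 ± 0.03 and -0.29 ± 0.03. Of 13 fatty acid synthesis genes, 3 had a called difference, among them the desaturases Scd (0.11 ± 0.06 and -0.42 ± 0.06) and Scd2 (0.04 ± 0.03 and -0.36 ± 0.03), and the median difference of the list was 0.0516. No sterol list promoter held the sterol element TCACNCCAC (0 of 17, against 1.15% of tested genes).

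**Figure D5:**
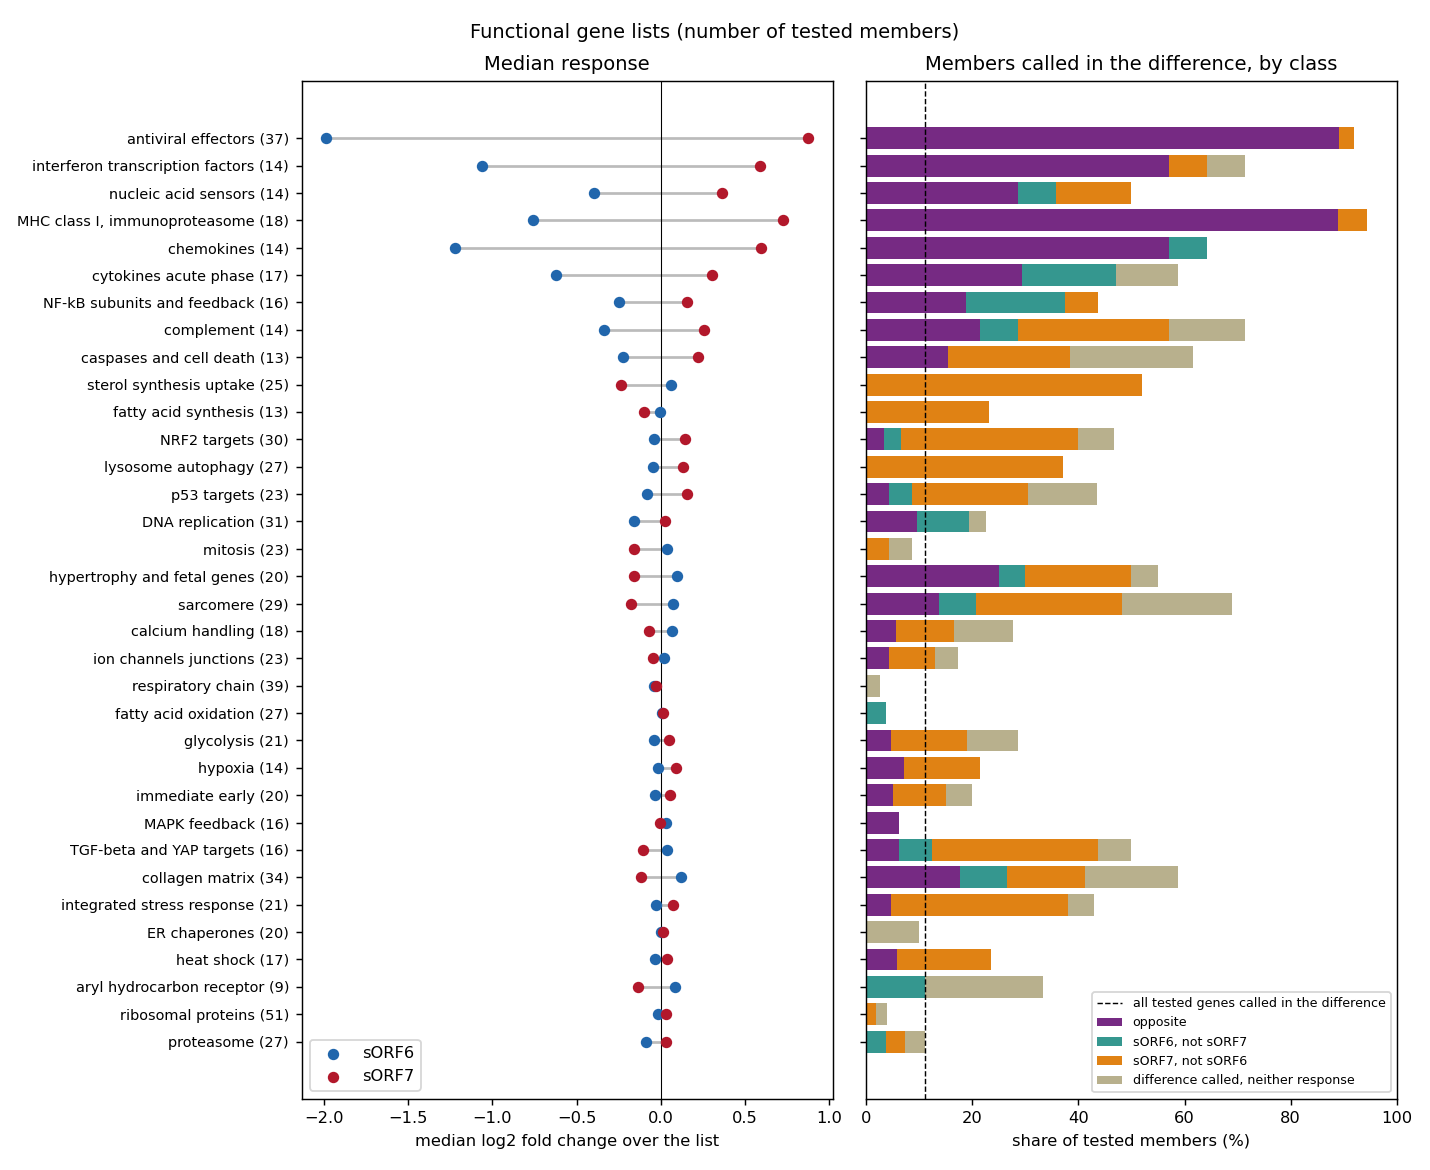
Median response of each functional list to sORF6 and to sORF7 (left, log2 fold change) and share of tested members called in the difference, by class (right, %), with the number of tested members in brackets; the dashed line marks the 11.2% of all tested genes called in the difference. The antiviral list has medians of -1.99 and 0.878, and the sterol list -0.234 for sORF7.

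Several other lists lay at or below the background. Of 39 respiratory chain genes 1 had a called difference, of 27 fatty acid oxidation genes 1 (Ppara), of 51 ribosomal proteins 2 and of 27 proteasome genes 3, all at or below the 11.2% of all tested genes. Of 31 DNA replication genes, 7 had a called difference, all lower with sORF6, and 3 of these were opposite (Fen1, Mcm3 and Mcm6), for example Mcm6 with -0.35 ± 0.04 and 0.15 ± 0.04. The rise of Mcm3 and that of Mcm6 were not called without sORF7 replicate 1 or 3 or control replicate 2 of sORF7 (adjusted p up to 0.0608 and 0.146), and Fen1 was opposite in 5 of 12 fits that left out 1 library (up to 0.179). A called difference was also found for 9 of 21 genes of the integrated stress response (2 higher with sORF6 and 7 lower), 8 of 16 targets of TGF-beta and YAP (7 higher and 1 lower), 6 of 21 glycolysis genes (all lower) and 3 of 9 targets of the aryl hydrocarbon receptor (all higher). Slc2a4, the glucose transporter GLUT4 of muscle, was opposite (-0.55 ± 0.08 and 0.47 ± 0.07), as was Cebpb, a transcription factor of inflammation and stress (-0.59 ± 0.10 and 0.44 ± 0.09). Trib3, a pseudokinase induced by stress, rose with sORF7 (0.44 ± 0.07, with -0.11 ± 0.07 for sORF6), and Asns, which makes asparagine, fell with sORF7 (-0.23 ± 0.04, with 0.08 ± 0.04). Vcam1, an adhesion molecule of inflamed endothelium, fell with both (-0.42 ± 0.06 with sORF6 and -0.21 ± 0.06 with sORF7), and the difference between these was not called (adjusted p = 0.142). Its sORF7 call was lost without any sORF7 replicate, control replicate 2 or 3 of sORF7, sORF6 replicate 1 or control replicate 1 of sORF6 (adjusted p up to 0.173).

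The cell type markers did not all stay level. Over all tested genes, 11.2% had a called difference. The summed level of 10 cardiomyocyte markers was 42900 to 44000 normalised CPM with sORF7 and 46100 to 50700 in the other groups, 4 of 10 having a called difference that was higher with sORF6 and 1 (Myh6) lower. The 14 fibroblast markers in the table summed to 9140 to 9660 with sORF6, 8110 to 8920 in its control, 8280 to 9180 in the control of sORF7 and 7850 to 8200 with sORF7. Leukocyte markers summed to 140 to 157 with sORF6 and 160 to 186 in its control, against 131 to 140 with sORF7 and 137 to 153 in its control, and no marker was at 0 in all 12 libraries. Erythroid markers, at very low levels, summed to 1.75 to 2.44 with sORF6, 2.45 to 7.25 in its control, 3.6 to 10.4 in the control of sORF7 and 7.23 to 10.4 with sORF7, 2 of 5 tested having a called difference, lower with sORF6. These were Hba-a1 and Hbb, whose differences were not called without the 2 control libraries (adjusted p = 0.101 and 0.0917). Their class held in 3 and 5 of 12 fits that left out 1 library. Epicardial markers summed to 76.1 to 81.2 with sORF6, 70.2 to 76.7 in its control, 72 to 75.1 in the control of sORF7 and 63.6 to 68 with sORF7. Of 10 tested, 1 had a called difference, a share near the 11.2% of all tested genes. The gene was Krt8, whose class held in 4 of 12 fits that left out 1 library. Endothelial markers summed to 75.1 to 89.7 over the 4 groups, with a called difference in 0 of 11 tested. Smooth muscle and pericyte markers summed to 5170 to 5680, with 3 of 12 called higher and 2 lower in the difference. Schwann and neural crest markers summed to 22.2 to 23.6 with sORF6 and 17.7 to 19.8 in its control. With sORF7 they summed to 13.7 to 16.1, and 14.6 to 16.5 in its control, with 0 of 5 called. The part of the cell types in the changes of matrix, sarcomere and inflammatory genes was not tested. The cardiomyocyte sum exceeded that of every other marker list in all 4 groups. The lists differ in the number and abundance of their genes, so the sums do not measure the share of each cell type.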

How the data were processed

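RNA sequencing libraries of 12 samples, 3 per group, were compared, and 18 libraries of the series entered the fit. Groups came from the sample titles. Per the submitters' processing notes, the tools included HISAT2 2.0.4, RSEM 1.2.12 and DESeq2 1.4.5 on build Rnor_6.0, without roles. The authors deposited 1 table with estimated counts per gene and library, and every value column of a library matched a sample. The FPKM values in the same table were deposited by the authors and served one alternative and the effective transcript length. The authors' log2 fold changes and the deposited p-values and q-values were not used. Strand use in counting was not given in the sources used here.

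Estimated counts were rounded and tested with edgeR 4.0.16 (R 4.3.3, limma 3.58.1). There filterByExpr kept 14870 of 19880 genes, and TMM scaled the libraries. A quasi-likelihood fit had 1 mean per group and 12 residual degrees of freedom. The common BCV, edgeR's measure of variation between replicates beyond counting noise, was 6.9%. That variation may be technical here. Two-sided p-values were Benjamini-Hochberg adjusted across all 14870 genes and called under 0.05. Values after ± are standard errors of log2 fold changes. Normalised CPM are CPM of TMM-scaled library size. The test was checked on simulated data. Alternatives were DESeq2 1.42.0, RLE factors, 2 filters, 12 libraries only, limma on log2(FPKM + 1), a replicate block, length offsets, 2 control libraries left out, each library left out and an adjusted p under 0.01.

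Named genes were the 10 largest differences per orientation among opposite genes, the 6 largest rises and falls per sORF-only class with a bounded other response, 12 fixed genes and the 3 members of each of 42 lists with the smallest p for the difference. Myh7 share, Adra1d, Adrb1, Cd274, B2m, Psmb8, Mx2, Isg20, Ifit1, Oas3, Ifitm1, Ccl5, Tnf, Il1b, Cxcl6, Fhl1, Myl4, Synpo2l, Mmp3, Csf1r, Eln, Lamp1, Ttn, Igf1, Tgfbr2, Apoe, Txnip and Mmp9 were chosen after their values were seen. The comparison, lists and rules were chosen with earlier results of these data known. Positions of promoters are those of GRCr8 in the RefSeq table, and no genome of the authors' build was used here. A few genes that the rule names are not reported here.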

Additional observations from a re-analysis of the deposited data

Results flagged for a closer look

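The responses to sORF6 and to sORF7 differed, by the test of the difference itself, for 1659 genes. For the named genes below, the log2 difference (sORF6 response minus sORF7 response, called by edgeR at an adjusted p under 0.05) is what singled them out. Among opposite genes lower with sORF6, the differences were Isg15 -4.64, Oas1a -4.64, Rsad2 -4.59, Cxcl2 -4.56, Usp18 -4.42, Irf7 -4.39, Nos2 -4.25, Mx2 -4.11, Tnf -3.69, Cxcl10 -3.65, Dhx58 -3.62, Ddx58 -3.23, Oas1b -3.17, Il1b -2.88, Ifih1 -2.67, Ccl2 -2.41, Cxcl1 -2.36, Psmb8 -2.09, Mmp3 -2.09, Tap1 -2.06, Stat2 -1.94, Tapbp -1.90, Lcn2 -1.86, C3 -1.57, Cd274 -1.56, RT1-CE5 -1.36, Bcl3 -1.32, Adra1d -1.21, B2m -1.16, Cebpb -1.04, Slc2a4 -1.02, Mlkl -0.99, Nfkbiz -0.99, Tnfaip3 -0.93, Csf1 -0.72, Adrb1 -0.72, Fen1 -0.63, C1r -0.59, Mcm3 -0.53, Cdkn1a -0.52 and Mcm6 -0.50. Among opposite genes higher with sORF6, they were Pdlim5 0.33, Casq2 0.34, Mybpc3 0.37, Nppb 0.51, Txnip 0.52, Eln 0.57, Apoe 0.58, Nppa 0.68, Myh7 0.71, Myom2 0.76, Col5a3 0.99, Selenop 1.05, Col8a2 1.11, Dlk1 1.29 and Stab1 1.80. Among genes that changed with sORF6 and not sORF7, they were Mmp9 -1.77, Itgam -1.07, Angptl4 -0.91, Itgb2 -0.87, Scube3 -0.70, Nfkbia -0.67, Tnfrsf1b -0.67, Adgre1 -0.56, Myh6 -0.53, Tgfb3 0.29, Ppara 0.48 and Cyp1a1 1.93. Among genes that changed with sORF7 and not sORF6, they were Isg20 -0.65, Casp4 -0.65, Srxn1 -0.60, Hmox1 -0.57, Sqstm1 -0.56, Grn -0.55, Trib3 -0.54, Mdm2 -0.44, Gclc -0.40, Ctsd -0.33, Lamp1 -0.20, Actn2 0.27, Asns 0.31, Tgfbr2 0.32, Sqle 0.36, Acta1 0.38, Gata4 0.38, Hmgcs1 0.39, Scd2 0.40, Scd 0.53, Lyz2 0.59, Igf1 0.69, Hsd17b7 0.70 and Csf1r 0.78. With 3 libraries per group, single libraries were not tested as outliers.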

How the results depend on the processing

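Counts of called genes held within 1.5 times of the reported ones except as follows. The controls differed in 36 genes by DESeq2, 0 without a filter, 3 by limma, 0 with the replicate block, 6 with length offsets and 980 without the 2 control libraries. The same-direction count was 0 with RLE factors, without a filter, with 12 libraries only, with the block and at adjusted p under 0.01, 5 with length offsets and 2 without the 2 libraries. With 12 libraries only, genes higher with sORF6 and lower with sORF7 numbered 42 and the bounded sORF6 class 75. By limma, 457 genes had a higher and 1127 a lower difference (28.9% higher, against 43.8% by edgeR and 38.9% with length offsets), 47 were opposite and higher with sORF6, and 18 were of unequal size. At adjusted p under 0.01, opposite genes numbered 183 (154 and 29), sORF6 only 125 (54 bounded), sORF7 only 276 (192 bounded) and unequal 22, a stricter threshold by construction. The cause of the others was not tested. Leaving out 1 library gave a difference in 1261 to 1669 genes (529 to 750 higher, 732 to 931 lower), 368 to 611 for sORF6, 681 to 1322 for sORF7, 0 to 67 between controls, 231 to 322 opposite (181 to 245 and 45 to 78), 23 to 56 unequal, 111 to 256 sORF6 only (54 to 130 bounded), 362 to 715 sORF7 only (276 to 493 bounded) and 0 to 2 same direction. sORF6 calls fell to 368 and 372 and sORF6 only to 111 and 112 (54 and 63 bounded) without sORF6 replicate 1 or 3, sORF7 calls to 681 and sORF7 only to 362 (276 bounded) without sORF7 replicate 1, and sORF7 only to 413 without control replicate 1 of sORF7. Genes opposite and higher with sORF6 fell to 45, 51 and 47 without sORF6 replicates 1, 2 and 3 and 50 without sORF7 replicate 1, and unequal ones to 23 without sORF6 replicate 3 and 27 without sORF7 replicate 3. Controls differed in 67 without control replicate 2 of sORF6. Replicate numbers gave no pairing (r from -0.116 to 0.178 over 18 same-number pairs, 2 of 12 libraries matching best with their own number), and the replicate block gave 1600 differing and 308 opposite genes. No called difference was reversed among the 188 genes followed over the alternatives. Cxcl6, Fhl1, Myl4 and Synpo2l, named in the text, were not followed. Of 99 genes of the text that were followed, 65 kept their class in every alternative fit and 70 in every fit that left out 1 library. Without the 2 control libraries, Myh7 and Adra1d were called with sORF7 only. Stab1, Mmp3, Bcl3, C3 and Fen1 were then called with sORF6 only, and Csf1r and Cyp1a1 only in the difference. Depth leaves low genes such as Cxcl2, Tnf and Ccl5 imprecise.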

Other observations

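Some genes outside the lists stood among the opposite or single-sORF genes, chosen after their values were seen. Adra1d, an alpha-1 adrenergic receptor of the kind phenylephrine acts on, stood at 2.39, 2.74 and 3.35 normalised CPM with sORF6, 4.03, 5.04 and 3.99 with its control virus, 5.8, 5.89 and 6.65 with the control of sORF7 and 9.87, 8.66 and 9.12 with sORF7, and its responses were -0.62 ± 0.16 to sORF6 and 0.59 ± 0.14 to sORF7 (log2 ± SE). Adrb1, the main beta receptor of the heart, changed by -0.37 ± 0.07 and 0.35 ± 0.07. Cd274, which encodes the checkpoint ligand PD-L1, changed by -0.89 ± 0.22 and 0.66 ± 0.20, at few counts. Apoe, a lipid carrier, went the other way (0.39 ± 0.05 and -0.19 ± 0.05), as did Txnip, which binds thioredoxin (0.14 ± 0.04 and -0.38 ± 0.04). These calls depended on single libraries: leaving out 1 at a time, Adra1d was opposite in 8 of 12 fits, Apoe in 7, Txnip in 5 and Cd274 in 3. Igf1, a growth factor, fell with sORF7 (-0.50 ± 0.08), with 0.19 ± 0.08 for sORF6, and Tgfbr2, a TGF-beta receptor, changed by -0.19 ± 0.04 with 0.13 ± 0.04. Mmp9, a matrix protease of leukocytes, fell with sORF6 (-1.45 ± 0.17), with 0.33 ± 0.15 for sORF7, a response that was not called. Without control replicate 2 of sORF7, Mmp9 was opposite (adjusted p = 0.00984 for sORF7). Of the 243 genes lower with sORF6 and higher with sORF7, 95 were on a functional list, 80 of them on the 8 immune lists, and 148 were on none. Of the 77 genes of the other orientation, 16 were on a functional list and 0 on an immune one.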
